A study of Mus musculus with 6 samples.

Results

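The genes described here are the microRNA loci that were detected in liver RNA of mice breastfed by triclosan (TCS) exposed or vehicle mothers. A locus was taken when the deposited table typed it as miRNA and gave it at least 1 TPM (a length-corrected share of a sample's transcripts, scaled to the same total in each sample) in at least 3 of the 6 samples. Of the 51912 genes in the table, 2207 were typed as miRNA, 527 of these were above 0 in any sample, and 226 met the rule. The loci were thus chosen by their TPM in both groups, and their being detected is no finding. The livers came from C57/B6 mice at 21 days of age. The TCS group (n = 3) was nursed for 21 days by mothers exposed to TCS, an antimicrobial of consumer products. The labels of the TCS samples carry a dose of 120 ppm. The methods describe TCS in the mothers' chow from mating on, at an equal concentration, and the paper reports a far lower level in milk. The labelled dose is therefore read here as that of the chow and not as a level in milk. Because the chow was given from mating on, exposure before birth cannot be told apart from that by milk. The vehicle group (n = 3) received regular breastmilk. By the study's methods each RNA sample pooled 3 mice, and for its experiments in general the study states male neonates from 2 or more litters per treatment group. Which litters went into which pool is given neither by the labels nor by the methods, so p-values measure the spread between these pools. Replicate numbers are those of the table's columns. All 6 hepatocyte markers checked (Alb, Apoa1, Ttr, Tat, Cyp2e1 and Serpina1a) were at 714 TPM or more in every sample, and markers of exocrine pancreas summed to between 0.83 and 246.8 TPM with no order by group.

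A microRNA is cut from a long primary transcript. Drosha and its partner Dgcr8 release a hairpin precursor in the nucleus, Xpo5 (exportin 5) carries it to the cytoplasm, Dicer1 trims it to the mature strand, and an Argonaute protein uses that strand, mainly through its seed at bases 2 to 8, to find messenger RNAs to repress. Many loci lie in introns of other genes and are transcribed with them. In liver, miR-122 is the dominant microRNA of hepatocytes. The libraries were made with a TruSeq RNA kit from total RNA, not with a kit for small RNA, and a mature microRNA is shorter than the fragments such a library usually holds. The values below are therefore levels assigned to the loci, and not levels of mature microRNAs.

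The loci on which the comparison turned fell into different sequence types. For Mir704, 1 of the 3 loci past the threshold, the precursor at chr6:47803576-47803652 on the minus strand (GRCm38.p6, RefSeq) is printed with the mature strand in capitals. Its last 14 bases lie in coding exon 6 of Pdia4 (an endoplasmic reticulum disulfide isomerase) in the GENCODE annotation, and the mature strand is the stretch of intron just before that exon.
Mir704 precursor: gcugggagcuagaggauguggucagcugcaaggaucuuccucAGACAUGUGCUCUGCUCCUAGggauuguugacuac
The other loci past the threshold, Gm24561 at chr2:168178158-168178252 and Gm23967 at chr5:64101430-64101507, both on the minus strand, have no microRNA name, and their sequences (GENCODE M21, GRCm38) are shown because they were not unique. Gm24561 is a run of simple repeats, and Gm23967 is a copy of B1, a short interspersed repeat of rodent genomes.
Gm24561: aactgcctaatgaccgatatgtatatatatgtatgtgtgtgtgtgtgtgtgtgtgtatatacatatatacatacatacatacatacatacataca
Gm23967: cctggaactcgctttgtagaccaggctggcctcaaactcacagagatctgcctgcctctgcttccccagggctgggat
The locus listed at 0 in every TCS sample, Gm23415 at chr13:10592484-10592566 on the minus strand, was again a simple repeat, while Gm25149 at chr9:70799556-70799637 on the minus strand, within an intron of Lipc (hepatic lipase), had no near copy in any other annotated transcript.
Gm23415: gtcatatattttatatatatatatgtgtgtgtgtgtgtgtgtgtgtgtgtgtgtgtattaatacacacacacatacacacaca
Gm25149: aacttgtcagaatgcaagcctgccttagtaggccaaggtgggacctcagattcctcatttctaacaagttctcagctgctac
Mature strands from RefSeq, with the seed in capitals, are shown for 4 named loci as examples. Of these, Mir677 and Mir103-2 were lower in TCS without overlap, and Mir103-2, Mir192 and Mirlet7b were on the list of liver microRNAs. The strands of the other named loci are not shown. Those printed come from Mir677 (chr10:128085286-128085363), Mir103-2 (chr2:131288052-131288137), Mir192 (chr19:6264844-6264932) and Mirlet7b (chr15:85707319-85707403), all on the plus strand, and no seed is shared among them.
mmu-miR-677-5p: uUCAGUGAugauuagcuucuga
mmu-miR-677-3p: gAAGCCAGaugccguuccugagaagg
mmu-miR-103-3p: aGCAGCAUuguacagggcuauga
mmu-miR-192-5p: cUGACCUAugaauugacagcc
mmu-let-7b-5p: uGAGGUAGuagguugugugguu
The RefSeq table held 76 of the 226 loci with 123 mature sequences and 121 different seeds. Only 2 seeds were shared between loci of different names, both by Mir3084-1 and Mir3084-2.

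Names gave a first division of the loci, since 87 carried a microRNA name (Mir), 136 were predicted loci with a Gm symbol, and 3 had other symbols, 1 of them Snord43, which is named as a small nucleolar RNA. Near copies divided them the same way. When each of the 225 loci with a sequence was searched against all annotated transcripts (at least 80% identity over at least 80% of the locus), 77 of the 87 Mir loci matched no other gene, but 23 of the 136 Gm loci did so. At the other end 50 Gm loci and 1 Mir locus matched 100 or more other genes, up to 2956 genes. Gm23967 matched 1621 other genes, Gm24561 matched 7 and Mir704 matched 0. In all, 13 loci fell into 5 sets of identical sequence, and within each set the copies carried equal TPM in every sample, so their values are not independent of each other. Reads that align to a single place could not give equal values above 0 to identical copies, although the methods name uniquely aligned reads, and how reads were shared among copies is not given in the sources used here. The values of loci with near copies, Gm23967 and Gm24561 among them, are therefore uncertain as to which copy they came from. Mir3084-1 and Mir3084-2, for example, were both listed at 0, 1.99 and 4.60 TPM in vehicle and at 0, 1.88 and 0 TPM in TCS.

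The loci were short, with a median annotated length of 92 bases (57 to 217) against 4369 bases for the 11647 protein-coding genes tested, a ratio of 47.5. Division by length raised their TPM accordingly. The 226 loci held 0.462% to 1.65% of a sample's TPM, and 0.017% to 0.0638% once each gene's TPM was multiplied by its length. Within a sample, most values of genes of equal length under 200 bases were whole multiples of a common value, called a step here. Across such genes 76.2% of 1691 values lay within 0.05 of a whole multiple from 1 to 10, not counting the values that set the steps. Each step was picked to give the most whole multiples, which raises this share. The share also differed by length. In vehicle replicate 1 it was 9 of 9 values at 108 bases but 4 of 15 at 126 bases. For the microRNA loci the steps ran from 1.40 to 5.63 TPM with a median of 3.35 TPM. Each of the 809 values above 0 for which a step was found had a step above 1 TPM, so that for these values a floor of 1 TPM asked for no more than 1 step. Of 759 locus values up to 10 steps, 535 (70.5%) were whole multiples, and of these 238 equalled 1 step, 99 equalled 2 steps and 198 equalled 3 to 10 steps. The table holds no counts and does not say what a step is, so the depth behind a value is unknown and no counting error is given.

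**Figure D1:**
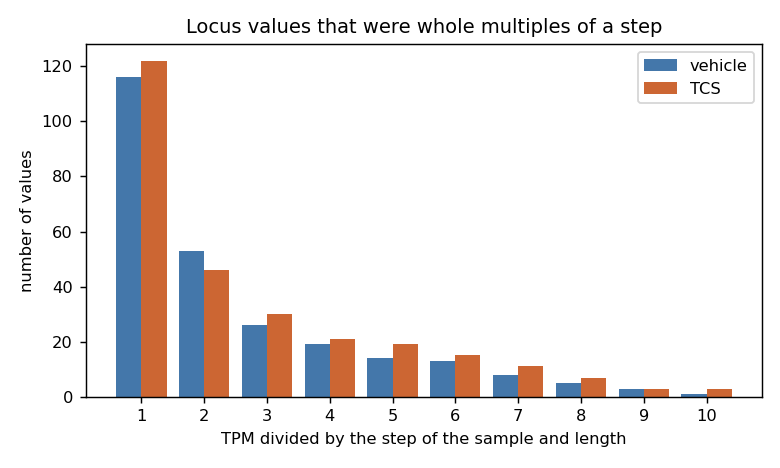
Number of locus values (vertical axis) that were 1 to 10 times the step of their sample and length (horizontal axis), with vehicle and TCS samples as separate bars that start at 0. In both groups 1 step is the most frequent value, and 238 of the 535 values are of that size.

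Zeros were frequent among the loci. A value of 0 stood in at least 1 sample for 159 of the 226 loci (70.4%), against 56.8% of 132 small nucleolar RNA genes, 60% of 55 small nuclear RNA genes and 0.275% of the protein-coding genes that met the same filter. Of the 226 loci, 65 were above 0 in 3 samples, 52 in 4, 42 in 5 and 67 in all 6. Each sample had its own zeros, with 60, 64 and 66 loci listed at 0 in vehicle and 54, 40 and 57 in TCS. A locus listed at 0 throughout 1 group had to be above 0 in all 3 samples of the other group to be among the 226 at all, and 4 loci were of this kind in vehicle and 1 in TCS. The other 60 loci above 0 in 3 samples had their zeros spread over both groups. Among all genes that met the same filter, the loci included, 6 were at 0 throughout vehicle and above 0 in every TCS sample. The reverse held for 5 genes. Of small nucleolar RNA genes 3 were at 0 throughout a single group, of small nuclear RNA genes 1 and of protein-coding genes 0. Requiring 1 TPM in all 3 samples of a group, 113 loci reached it in TCS, 88 in vehicle and 63 in both, while 88 loci reached the rule only by adding samples of both groups.

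**Figure D2:**
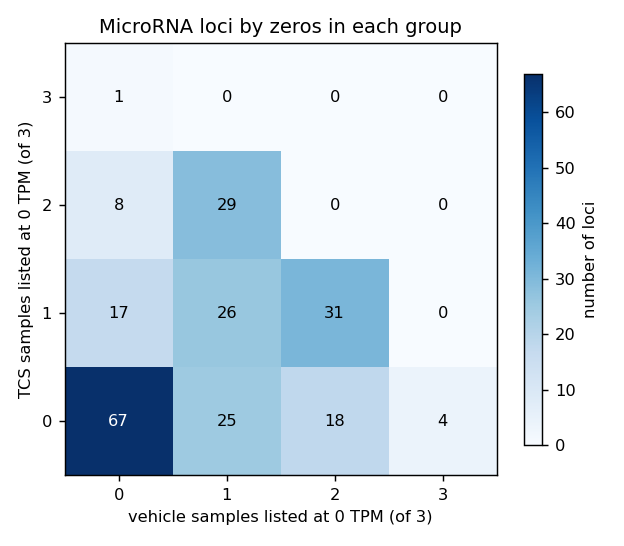
Number of microRNA loci (cell value and shade) by how many of the 3 vehicle samples (horizontal axis) and of the 3 TCS samples (vertical axis) list the locus at 0 TPM. The 67 loci with no zero are at the lower left, 4 loci are at 0 in every vehicle sample and 1 in every TCS sample, and the empty cells at the upper right are set by the detection rule.

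TCS was compared with vehicle on log2(TPM + 1) with limma across all 13325 genes of that filter, with Benjamini-Hochberg adjustment across these genes. An adjusted p under 0.05 was found for 23 genes, which is 0.173% of those tested. Of the 226 loci 3 passed (1.33%), all higher in TCS, where 0.0826% of genes tested were called higher. None was called lower by limma, where 0.0901% of genes tested were called lower, and 7 loci had an unadjusted p under 0.05 in that direction, against 3.5% of all genes. In the higher direction 23 loci had such a p, against 19.5% of all genes. Mir704 was listed at 0 in all 3 vehicle samples and at 3.86, 5.93 and 3.48 TPM in TCS (limma, adjusted p = 0.0249). In steps these TCS values were 1, 2 and 1. Gm23967 was listed at 0 in all vehicle samples and at 3.81, 4.05 and 6.84 TPM in TCS, and Gm24561 at 0 in vehicle and at 3.48, 5.26 and 2.99 TPM in TCS, the latter again 1, 2 and 1 steps (both adjusted p = 0.0249). No fold change is given against a group listed at 0. Because all 3 loci entered the analysis through the TCS group alone, their number is no support for a direction. None of the 3 calls held without vehicle replicate 1 (adjusted p = 0.0934 for each), without TCS replicate 1 (0.0657 to 0.0886), 2 (0.0542 to 0.0702) or 3 (0.0518 to 0.0583), or without the filter on low values (0.0778 for each). With TPM multiplied by gene length, which removes the length correction, 1.15% of all genes were called but 0 of the loci, with 12 loci higher and 5 lower at an unadjusted p under 0.05. Over the alternatives tried, the adjusted p of Mir704 ran from 0.0181 to 0.208.

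Pdia4, in whose gene Mir704 lies, stood at 135, 93 and 121 TPM in vehicle and at 157, 138 and 146 TPM in TCS (log2 fold change 0.35 ± 0.14 SE, limma, adjusted p = 0.209). The samples of the groups did not overlap, but the gene did not pass the threshold. Pgm2 (phosphoglucomutase), around Gm23967 on the opposite strand, was at 4.86 to 6.84 TPM in vehicle and 5.76 to 6.59 TPM in TCS, and no annotated gene lies around Gm24561. Another 2 loci were listed at 0 throughout 1 group without passing. Gm24132, with 23 near copies and no gene around it, was at 0 in vehicle and at 3.41, 10.6 and 17.8 TPM in TCS (adjusted p = 0.0625). Gm23415 was at 3.41, 3.43 and 8.68 TPM in vehicle and at 0 in TCS (adjusted p = 0.0537). Without the vehicle sample at 8.68 TPM the adjusted p of Gm23415 was 0.0232 (0.0232 to 0.205 over the alternatives), and without the TCS sample at 3.41 TPM that of Gm24132 was 0.0244 (0.0244 to 0.235). On all 6 samples Gm23415 also passed, as lower in TCS, with a pseudocount of 0.1 TPM (adjusted p = 0.0309), median-of-ratios rescaling (0.0486) and quantile scaling (0.0465), and Gm24132 passed with a pseudocount of 0.1 TPM (0.0338). Both loci entered the analysis through 1 group alone, Gm24132 through TCS and Gm23415 through vehicle. Their p-values are therefore no support for a difference.

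Samples of the groups did not overlap for 15 loci higher in TCS (6.64%) and 6 loci lower (2.65%). Among all genes tested 25.1% did not overlap with higher values in TCS and 4.61% with lower values, so both shares of the loci lay below the background. After median-of-ratios rescaling of the samples, which moved the median log2 fold change of all genes from 0.13 to 0.00, the background was 11.7% higher and 12.4% lower, and the loci counted 13 and 9. Of the 21 loci without overlap, 13 held at least 1 zero.

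**Figure D3:**
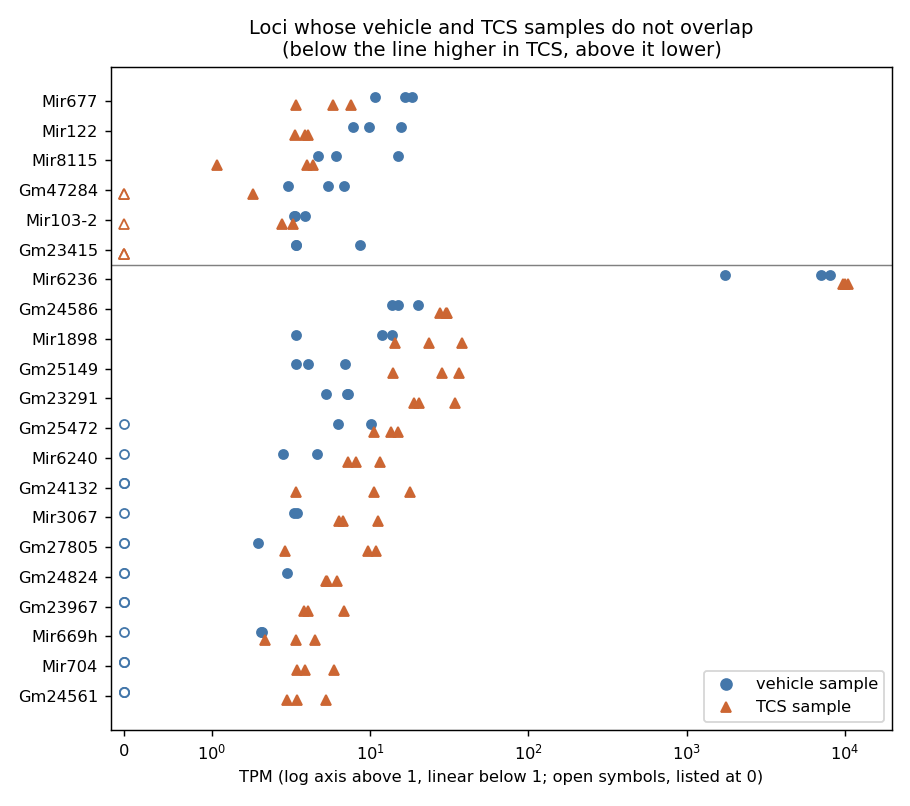
TPM of each vehicle sample (circles) and TCS sample (triangles) for the 21 loci whose groups did not overlap, on an axis that is logarithmic above 1 TPM and linear below it, with open symbols for values listed at 0. The 6 loci lower in TCS are above the line and the 15 higher loci below it, and most symbols lie under 20 TPM.

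Of the 6 loci lower in TCS without overlap, Mir122 and Mir103-2 were on the list of liver microRNAs. Mir122, the hepatocyte microRNA, lies in an exon of the long noncoding RNA AC157910.3, on the same strand. Mir122 was at 9.80, 7.78 and 15.8 TPM in vehicle (11.1 ± 4.17, SD, n = 3) and at 4.03, 3.90 and 3.35 TPM in TCS (3.76 ± 0.361, SD, n = 3), a log2 fold change of -1.30 ± 0.24 (SE) that did not pass the threshold (limma, adjusted p = 0.0863). In steps the vehicle values were 3, 2 and 3 and each TCS value was 1. The 6 hepatocyte markers summed to 128230 to 139080 TPM in vehicle and 112910 to 117674 TPM in TCS. Most of each sum was Alb, at 95700 to 107000 TPM in vehicle and 87600 to 89900 TPM in TCS. Of the 6 markers, 4 were lower in TCS without overlap, against 4.61% of all genes (12.4% after rescaling), while Ttr and Cyp2e1 overlapped. For these markers limma called 0, with 3 lower at an unadjusted p under 0.05, against 3.5% of all genes. Their part in the Mir122 values was not tested, and fewer cells of a type and less RNA per cell cannot be told apart in bulk liver. Mir677, in an intron of Atp5b (a subunit of the mitochondrial ATP synthase), was at 10.8, 18.3 and 16.6 TPM in vehicle and at 7.62, 5.81 and 3.42 TPM in TCS (log2 fold change -1.32 ± 0.29 SE, adjusted p = 0.0981). These were 3, 5 and 4 steps against 2, 2 and 1. Atp5b itself was at 911 to 1090 TPM in vehicle and 936 to 1020 TPM in TCS, so the host transcript overlapped between the groups where the locus did not.

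The remaining lower loci rested on smaller values. Mir103-2, in an intron of Pank2 (pantothenate kinase), was at 3.36, 3.31 and 3.87 TPM in vehicle and at 0, 2.78 and 3.24 TPM in TCS (adjusted p = 0.374). Each of its values above 0 was 1 step of its sample within the tolerance of 0.05, so that all samples above 0 were at the same number of steps although their TPM did not overlap. Pank2 moved the other way, from 9.15 to 11.7 TPM in vehicle to 11.8 to 15.3 TPM in TCS, without passing the threshold. Gm47284, in an intron of the ribosomal protein gene Rpl27a, was at 3.04, 6.85 and 5.41 TPM in vehicle and at 0, 1.82 and 0 TPM in TCS (adjusted p = 0.0988). Gm24888, a small nucleolar RNA that overlaps it on the same strand, was at 5.06, 13.1 and 6.84 TPM in vehicle and 8.19, 13.9 and 6.06 TPM in TCS, with overlap. Mir8115, in exon 13 of a transcript of P2rx7 (an ATP-gated ion channel), was at 15, 6.11 and 4.70 TPM in vehicle and at 4.39, 1.08 and 4.01 TPM in TCS (adjusted p = 0.225), and P2rx7 was at 1.35 to 1.97 TPM against 1.10 to 1.19 TPM. In all, 9 overlaps of a locus with a small nucleolar RNA gene on the same strand were found, 1 of them between Mir677 and Gm50449, which was listed at 0 in every sample.

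Among the higher loci that were above 0 in all 6 samples, Gm25149 had the highest log2 fold change. It was at 3.43, 6.91 and 4.04 TPM in vehicle (4.79 ± 1.86, SD, n = 3) and at 13.9, 36.5 and 28.5 TPM in TCS (26.3 ± 11.5, SD, n = 3). Its log2 fold change was 2.18 ± 0.38 (SE), with an adjusted p of 0.0847 by limma. Lipc, in whose intron it lies on the same strand, overlapped between the groups, at 131, 132 and 160 TPM in vehicle and at 130, 155 and 174 TPM in TCS. Gm23291, with 493 near copies, was at 7.20, 7.31 and 5.26 TPM in vehicle and at 19, 20.3 and 34.2 TPM in TCS (log2 fold change 1.71 ± 0.24 SE, adjusted p = 0.0576). It passed the threshold when the filter on low values was raised to 5 TPM (adjusted p = 0.0462, range over the alternatives 0.0462 to 0.205). Gm24586, with 37 near copies and no gene around it, was at 13.7, 20 and 15 TPM in vehicle and at 30.8, 30.4 and 27.8 TPM in TCS (log2 fold change 0.85 ± 0.14 SE, adjusted p = 0.0814). Without vehicle replicate 2 its adjusted p was 0.0429 (range 0.0429 to 0.255). Mir1898, in an intron of Zfr (a zinc finger RNA-binding protein), was at 13.7, 3.43 and 11.9 TPM in vehicle and 14.3, 23.5 and 38.2 TPM in TCS (log2 fold change 1.38 ± 0.53 SE, adjusted p = 0.199). Zfr was at 21.2 to 23.2 TPM in vehicle and 24.9 to 37.8 TPM in TCS.

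The other higher loci without overlap had zeros in vehicle, except Mir6236, which is described with the most abundant loci. Gm27805, in an intron of Prrc2b, was at 0, 0 and 1.96 TPM in vehicle and 10.9, 2.92 and 9.77 TPM in TCS (adjusted p = 0.105). Mir3067, in an intron of Smoc1 (a matricellular protein), was at 3.46, 3.31 and 0 TPM in vehicle and 6.72, 11.2 and 6.34 TPM in TCS (adjusted p = 0.168), while Smoc1 was at 27.2 to 37.8 TPM and 24.6 to 27.7 TPM. Mir6240, with no gene around it, was at 4.60, 0 and 2.81 TPM in vehicle and 8.10, 11.5 and 7.31 TPM in TCS (adjusted p = 0.162). Mir669h, in an intron of Sfmbt2 (a Polycomb protein gene), had the narrowest gap of these, at 2.07, 2.05 and 0 TPM against 4.46, 3.39 and 2.17 TPM (adjusted p = 0.253). Its values of 2.07, 2.05 and 2.17 TPM were each 1 step of their sample, so in steps the groups met. Gm24824 was at 3, 0 and 0 TPM in vehicle and 5.34, 5.25 and 6.21 TPM in TCS (adjusted p = 0.117), and Gm25472 at 6.24, 0 and 10.2 TPM against 10.6, 15.1 and 13.6 TPM (adjusted p = 0.279). Both lie on the strand opposite to a gene, Araf and A630001G21Rik, and have 544 and 2618 near copies. Without vehicle replicate 1, the only vehicle sample in which Gm24824 was above 0, its adjusted p was 0.0296 (range 0.0296 to 0.286). The locus met the rule through TCS alone in the samples then left, so this p-value is no support for a difference.

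The other large fold changes belonged to loci with zeros in some samples of a group. Mir6937, in an intron of Adi1, was at 0, 7.86 and 0 TPM in vehicle and 4.24, 12.4 and 13.6 TPM in TCS, with a log2 fold change of 2.28 ± 0.91 (SE, limma, adjusted p = 0.205). Mir1943, in an intron of Tmem184b, was at 0, 7.43 and 0 TPM against 3.93, 9.51 and 17.7 TPM (log2 fold change 2.28 ± 0.92 SE, adjusted p = 0.209). In both the groups overlapped through vehicle replicate 2. Gm27353, in an intron of Ccpg1, was at 8.59, 8.77 and 10.4 TPM in vehicle and 9.57, 0 and 0 TPM in TCS (log2 fold change -2.22 ± 0.90 SE, adjusted p = 0.209). TCS replicate 1 was within the vehicle range, and without it the adjusted p was 0.00869 (range 0.00869 to 0.448). In the samples then left, Gm27353 was above 0 in vehicle alone and met the rule through that group. This p-value is therefore no support for a difference. Over all 226 loci the median log2 fold change was 0.26, against 0.13 over all genes tested. With median-of-ratios rescaling these medians were 0.15 and -0.002, and with TPM multiplied by gene length 0.04 and 0.11. Of the loci, 50 reached 1 TPM in all 3 TCS samples but not in all 3 vehicle samples, and 25 the reverse. The medians are therefore no support for a direction. The 67 loci above 0 in all samples varied between replicates with a median SD of 48.6% of the mean in vehicle and 37.3% in TCS. For protein-coding genes tested these values were 10.5% and 9.63%. The sets were not matched for TPM or length, so the gap cannot be assigned to the gene type.

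**Figure D4:**
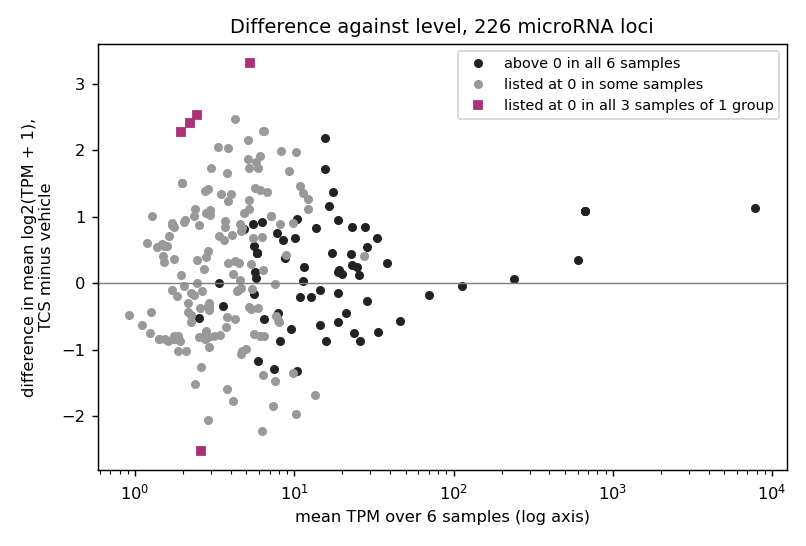
Difference in mean log2(TPM + 1), TCS minus vehicle (vertical axis), against mean TPM over the 6 samples on a log axis (horizontal axis) for the 226 loci, marked by their zeros. The 5 loci at 0 in all samples of 1 group lie among the largest differences at means of a few TPM, and loci above 0 in all samples narrow towards 0 as the mean rises, apart from Mir6236 and the 3 identical loci at the right.

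In 5 of the 6 samples most of the TPM of the loci belonged to 1 locus. Mir6236, at chr9:110281287-110281409 with no gene around it, had no near copy among annotated transcripts. Copies outside annotated transcripts were not searched for, so its values may not come from this place alone. Mir6236 was at 8020, 1760 and 7030 TPM in vehicle (5603 ± 3365, SD, n = 3) and at 10100, 9770 and 10400 TPM in TCS (10090 ± 315, SD, n = 3). It held 38.1% to 67.3% of the loci's summed TPM in vehicle and 59.4% to 72.5% in TCS. The groups did not overlap, but vehicle replicate 2 stood far below the other 5 samples. The log2 fold change was 1.12 ± 0.55 (SE, limma, adjusted p = 0.271) and fell to 0.43 without vehicle replicate 2 (adjusted p = 0.126, range over the alternatives 0.126 to 0.471). Lars2 (mitochondrial leucyl-tRNA synthetase) is a gene outside the loci, picked after its values were seen. It was low in the same sample, at 153, 45.5 and 157 TPM in vehicle and 188 to 198 TPM in TCS. Gm15564 and CT010467.1 were looked at as well. Gm15564 was at 1.17, 0.534 and 0.523 TPM in vehicle and 0.771, 0.569 and 1.3 TPM in TCS, where vehicle replicate 2 did not stand apart. CT010467.1 was at 0.256, 0.0714 and 0.403 TPM in vehicle and 0.256, 0.351 and 0.135 TPM in TCS, lowest in vehicle replicate 2. The part of these genes in the result was not tested.

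The next loci were 3 identical copies of 57 bases, Gm24245, Gm23935 and Gm24270, whose GC-rich sequence is shown as that of Gm24245 (chr4:139338304-139338360, plus strand).
Gm24245: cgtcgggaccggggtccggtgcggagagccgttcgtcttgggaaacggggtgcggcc
Each copy was listed at 570, 143 and 638 TPM in vehicle and at 1040, 1260 and 380 TPM in TCS (adjusted p = 0.372), again lowest in vehicle replicate 2, and here the groups overlapped. Gm27463, also of 57 bases and with 14 near copies, was at 403, 566 and 622 TPM in vehicle and 551, 858 and 620 TPM in TCS (log2 fold change 0.35 ± 0.22 SE, adjusted p = 0.366). The groups overlapped. Mir5125, in an intron of the splicing factor gene Srrm2, was at 237, 212 and 250 TPM in vehicle and 289, 225 and 222 TPM in TCS (adjusted p = 0.762). Gm27512, with 2874 near copies, was at 104, 120 and 122 TPM against 109, 109 and 115 TPM (adjusted p = 0.718).

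Among the 10 highest loci were also Gm22824, Gm25442 and Gm23268. Gm22824 was at 57.8 to 104 TPM in vehicle and 50.8 to 92.3 TPM in TCS. Gm25442 was at 38.3 to 66 TPM in vehicle and 28.7 to 41.9 TPM in TCS (log2 fold change -0.58 ± 0.24 SE, adjusted p = 0.214). Gm23268 was at 9.8 to 63.8 TPM in vehicle and 30.4 to 48.9 TPM in TCS. In all 3 the groups overlapped. Summed over the 226 loci, TPM was 9383 ± 4131 (SD, n = 3) in vehicle and 15540 ± 1085 (SD, n = 3) in TCS, and without Mir6236 and the 3 copies it was 2429 ± 243 and 2769 ± 161. The sums of the remaining 222 loci were 2186, 2427 and 2673 TPM in vehicle and 2595, 2911 and 2803 TPM in TCS, which overlapped.

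**Figure D5:**
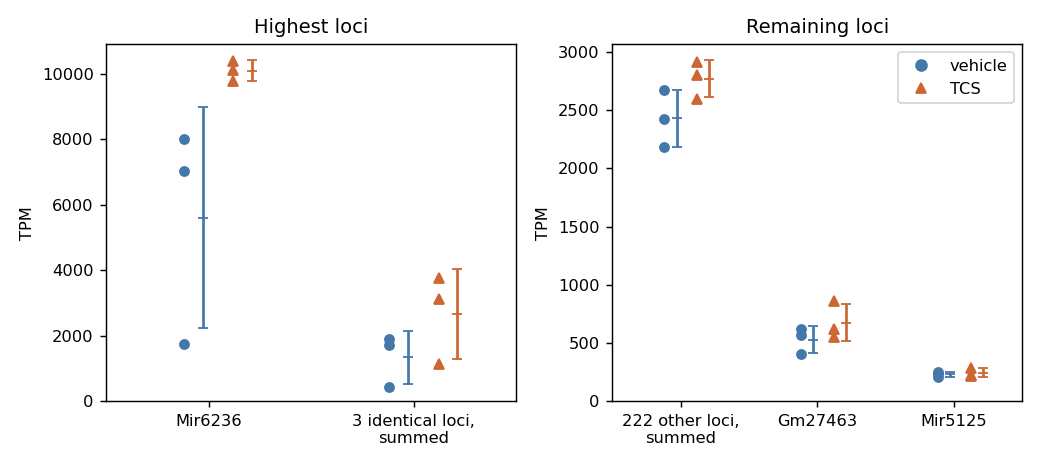
TPM of each sample (symbols) with the mean and SD of each group of 3 (bars) for Mir6236 and the sum of the 3 identical loci (left) and for the sum of the other 222 loci, Gm27463 and Mir5125 (right), with both axes starting at 0. Vehicle replicate 2 is the lowest point for Mir6236, at 1760 TPM, and for the identical loci, while the sum of the other 222 loci runs from 2186 to 2911 TPM.

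MicroRNAs known from liver were mostly not seen. Of 48 symbols listed for hepatocyte, metabolic and growth-related microRNAs, 45 were in the table, 13 were above 0 in any sample and 6 met the rule, with 0 called by limma and 1 at an unadjusted p under 0.05, Mir122. Besides Mir122 and Mir103-2 these were Mir192, Mir802, Mir23b and Mirlet7b. Mir192, a hepatocyte and epithelial microRNA, was at 6.60, 6.65 and 7.47 TPM in vehicle and at 6.83, 11 and 0 TPM in TCS (adjusted p = 0.599). The log2 fold change was -0.80 and turned to 0.30 without the TCS sample listed at 0. Mir802, which is induced in livers of obese mice, was at 5.93, 6.47 and 0 TPM in vehicle and 14.2, 5.07 and 8.81 TPM in TCS (adjusted p = 0.339). Mir23b, the highest of this list, was at 30.4, 11.1 and 33.3 TPM against 20, 9.75 and 21.4 TPM (adjusted p = 0.573), and replicate 2 was the lowest of each group. Mirlet7b, of the let-7 family, was at 6.91, 3.27 and 0 TPM in vehicle and 0, 0 and 6.61 TPM in TCS (adjusted p = 0.697). Mir21a, Mir22, Mir33, Mir34a, Mir107 and Mir30a were listed at 0 in all 6 samples.

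Loci that mark other cells of the liver were nearly empty too. Of 17 symbols, 16 were in the table and 2 were above 0. Mir145a, a microRNA of smooth muscle and stromal cells, was at 5.95, 3.98 and 4.35 TPM in vehicle and 8.23, 3.51 and 20.6 TPM in TCS (adjusted p = 0.414), with its highest value in TCS replicate 3. The host transcript Mir142hg, of blood cells, was at 8.10, 9.83 and 8.35 TPM in vehicle and 8.54, 4.19 and 4.96 TPM in TCS, while Mir142 itself was listed at 0 throughout. Mir126a of endothelium, Mir451a and Mir144 of erythroid cells, Mir155 and Mir150 of lymphocytes and Mir200a of epithelium were also at 0 in every sample.

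By position, 106 of the 226 loci lay in an intron of a gene on their own strand, 7 in an exon and 8 partly in an exon. A further 29 lay on the strand opposite to a gene, 26 of them in an intron, and 76 had no annotated gene around them. The 106 intronic loci had 106 different host genes, 92 of them with a mean of at least 1 TPM and 60 with at least 10 TPM.

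Most genes listed for making and using microRNAs were detected, and none of those tested passed the threshold. From 5 lists with 44 symbols (nuclear processing, export, Dicer complex, Argonaute and silencing, and tailing, editing and decay) 39 genes were tested, and limma called 0, with 15 higher and 0 lower at an unadjusted p under 0.05, against 19.5% and 3.5% of all genes. The lowest adjusted p was 0.111, for Mov10. Groups did not overlap for 22 of the 39 genes, all higher in TCS, against 25.1% of all genes tested. After median-of-ratios rescaling this became 6 higher (15.4%) and 2 lower (5.13%), against 11.7% and 12.4% of all genes. Drosha was at 4.02, 4.08 and 4.17 TPM in vehicle and 4.66, 5.02 and 4.95 TPM in TCS (log2 fold change 0.21 ± 0.08 SE, adjusted p = 0.211). With median-of-ratios rescaling the log2 fold change of Drosha was 0.081 (adjusted p = 0.616), and those of Dgcr8, Xpo5, Dicer1, Ago1 and Mov10 were 0.23, 0.16, 0.21, 0.10 and 0.24, each more than 1.5 times smaller than without it. Dgcr8 was at 11, 9.18 and 6.85 TPM against 10.1, 12 and 13.3 TPM, with overlap. Xpo5 was at 6.61, 6.33 and 7.29 TPM in vehicle and 8.61, 7.64 and 9.35 TPM in TCS (adjusted p = 0.168). Dicer1 was at 10.9, 11.6 and 12.4 TPM against 12.9, 14.5 and 18.5 TPM (log2 fold change 0.35 ± 0.14 SE, adjusted p = 0.196).

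Among Argonautes, Ago1 was at 4.42 to 4.72 TPM in vehicle and 5.04 to 6.06 TPM in TCS (adjusted p = 0.216), while Ago2, the member that can cut its targets, overlapped at 3.59 to 3.82 TPM and 3.01 to 4.21 TPM. Mov10, a helicase of the silencing complex, was at 10.3, 10.3 and 12 TPM in vehicle and 13.3, 15.1 and 14.9 TPM in TCS (log2 fold change 0.38 ± 0.10 SE). Lin28a and Lin28b, which block let-7 maturation, stayed below 0.1 TPM in every sample and were not tested.

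At the edge of the rule, the loci just inside by the value of the third highest sample were Gm44310 (1.14 TPM), Mir3535 (1.49 TPM) and Mir8111 (1.56 TPM), and those just outside were Gm22118 (0.993 TPM), Mir7240 (0.855 TPM) and Gm25026 (0.669 TPM). Mir8111 was at 0, 1.56 and 2.06 TPM in vehicle and 0, 0 and 1.89 TPM in TCS. Mir7240 reached 9.68 TPM in vehicle replicate 3 and 9.55 TPM in TCS replicate 2, yet fell outside because the next sample was at 0.855 TPM.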

How the data were processed

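Liver RNA of 6 samples was sequenced, 3 per group. Per the submitters' processing notes and the study's methods, bases were called with bcl2fastq 2.17.1.14 and reads aligned to mm10 with STAR 2.2.0c, keeping uniquely aligned reads, which the equal values of identical loci do not match. The methods describe FPKM from HOMER over RefSeq exons, whereas the authors deposited TPM values under Ensembl identifiers, rounded to 3 significant digits, by a step not given in the sources used here. Depth per sample is therefore unknown. The authors' own log2 fold changes and adjusted p-values were not used.

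The filter kept genes that reached 1 TPM in 3 or more samples, and limma 3.58.1 (R 4.3.3), checked on simulated data, fitted log2(TPM + 1) with a variance trend. Positions, lengths, hosts and sequences came from GENCODE M21 (GRCm38), which holds all 226 loci, and mature strands from RefSeq GRCm38.p6. Near copies were sought with BLAST 2.17.0. Steps were found per sample and length among genes under 200 bases with 1 transcript, identical copies being summed, as the observed value of which most others were whole multiples within 0.05, keeping candidates within 25% of the median step of lengths within 10 bases.

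Loci were named if past the threshold, without overlap between groups, at 0 throughout a group, among the 10 highest in mean TPM or the 10 largest in log2 fold change, nearest to the edge of the rule, or members of the fixed lists. Members and lists were chosen with earlier results of these data known. The alternatives tried were pseudocounts of 0.1 and 5 TPM, no filter, filters at 5 TPM and on the mean, median-of-ratios and quantile scaling, TPM multiplied by gene length, no variance trend, each replicate left out, and a replicate block.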

Additional observations from a re-analysis of the deposited data

How the results depend on the processing

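The count of genes called was 23 of 13325 and that of microRNA loci 3 of 226. Without the filter on low values both counts were 0, with 3123 genes higher and 714 lower at an unadjusted p under 0.05 (18 and 5 of the loci). A filter at 5 TPM gave 59 genes and 1 locus of the 114 left. TPM multiplied by gene length gave 153 genes and 0 loci (12 higher and 5 lower unadjusted). A pseudocount of 0.1 TPM gave 5 loci and one of 5 TPM gave 1. Leaving out 1 replicate gave 0 genes (without TCS replicate 3) to 29 genes (without vehicle replicate 2), and 0 loci (without TCS replicate 2 or 3) to 6 loci (without vehicle replicate 3). Median-of-ratios rescaling called 10 genes higher and 19 lower and quantile scaling 8 and 20, against 11 and 12, and both called 3 loci higher and 1 lower, against 3 and 0.

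With the column number as a replicate block, limma called 0 genes and 0 loci, with 2622 genes higher and 448 lower unadjusted (22 and 9 of the loci). Samples of equal number had correlations of -0.01, -0.25 and -0.07 across genes in their deviations from the group means. Those of unequal number ran from -0.13 to 0.21. No pairing was taken from the numbers, and 3 samples per group are too few to show whether any were paired.

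Among 772 refits of single named genes, 733 kept direction and side of the threshold, 23 lost a call, all of Mir704, Gm23967 and Gm24561, 10 gained one and 6 changed sign. Mir5125 had a log2 fold change of -0.086 with median-of-ratios rescaling and -0.025 with quantile scaling. With 1 replicate left out the log2 fold change of Mir5125 ran from -0.056 (without TCS replicate 1) to 0.13, of Mir192 from -1.50 to 0.30 (without TCS replicate 3), of Gm22824 from -0.44 to 0.086 and of Gm23268 from -0.46 to 0.83, both turning without vehicle replicate 2. The causes were not tested. Steps of 1.40 to 5.63 TPM limit what a change of a few TPM can show.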

Other observations

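Outside the rule, 301 loci typed as miRNA were above 0 in at least 1 sample. Of these, 209 were above 0 in 1 sample, 85 in 2, 6 in 3 and 1 in 4 samples. The highest mean among them was that of Gm23876, which was at 0, 21.3 and 0 TPM in vehicle and at 0, 7.9e-07 and 45.2 TPM in TCS, and Mir6986 was at 18.6 TPM in TCS replicate 1 and at 0 in the other 5 samples. From the liver list, Mir194-2 was at 3.36 TPM in vehicle replicate 1 and 3.38 TPM in TCS replicate 1, and Mir222, Mir148a, Mir101b and Mir27b were above 0 only in TCS replicate 3, at 3.42, 2.91, 2.94 and 0.443 TPM. Mirlet7c-2 was at 5.26 TPM in TCS replicate 2 and at 0 in the other 5 samples. Mir15a was at 3.46, 0 and 4.02 TPM in vehicle and at 0 in every TCS sample. Loci typed as miRNA and above 0 numbered 243, 228 and 205 in the vehicle samples and 223, 254 and 263 in the TCS samples.

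Mir1291 overlaps Snora34, a small nucleolar RNA gene on the same strand. Mir1291 was at 13.8, 11.8 and 14.1 TPM in vehicle and 18.9, 7.64 and 9.74 TPM in TCS, and Snora34 at 12, 6.71 and 8.11 TPM in vehicle and 10.9, 8.24 and 14.9 TPM in TCS, so that the order of the TCS samples differed between the overlapping genes. Mir3068 overlaps the small nucleolar RNA gene Gm50450, which was at 1.77, 3.46 and 2.10 TPM in vehicle and listed at 0 in every TCS sample, while Mir3068 was at 0, 0 and 8.05 TPM in vehicle and 3.80, 2.92 and 0 TPM in TCS. These pairs were chosen after their values were seen.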
